A study of Mus musculus with 24 samples.

Results

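The change in messenger RNA between 6 h and 24 h of gentamicin (GM) exposure was measured in cultured mouse organ of Corti (OC), the sensory epithelium of the cochlea. The members were the 3 GM libraries taken at 24 h and the 3 taken at 6 h, 6 of the 24 libraries of the series, chosen by their labels alone. The 3 control (CTRL) libraries at each time point, cultured without drug, gave the same change over time and were set beside it, so that what the drug added to culture time could be tested as a difference of the 2 changes. All explants came from 5-day-old C57BL/6N pups of both sexes, were incubated for 24 h in medium with penicillin and fetal calf serum, and were pooled, 6 OCs to a library. GM libraries received 50 μM gentamicin, and CTRL libraries were cultured alongside them without the drug. The remaining libraries received 10 μM pioglitazone (PIO) alone or with gentamicin (PIO + GM). They are used only where the difference made by gentamicin could be looked at a second time. The labels do not say whether the 3 libraries of a group came from separate litters or culture days, so p-values measure the spread between these pools. The growth protocol does not say whether that 24 h incubation preceded the drug, so the time since explantation at 6 h and 24 h is not given. No GM library was taken before the drug was added, and an explant was sampled once, so a change over time compares different pools.

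Gentamicin is an aminoglycoside antibiotic that enters auditory hair cells (HCs) through their mechanotransduction channels and other routes and kills them, the outer HCs of the basal turn first. A dissected OC also holds supporting cells, the epithelial ridges, nerve and Schwann cell remnants, mesenchyme and a few resident macrophages. Dissection and explantation themselves start wound and stress programs in such tissue: immediate early genes, the integrated stress response (in which the factor ATF4 raises amino acid supply genes), heat shock proteins and cytokines. These programs are generally transient.

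The libraries held between 11656327 and 15093084 counts in GM and between 11516308 and 15052556 in CTRL, and 16317 of 24454 genes had enough counts to be tested. HC and supporting cell genes were read in every library. In the 6 GM libraries the 45 tested HC genes together took 1294 to 2049 CPM (read counts scaled to a common library size) at 6 h and 1603 to 2187 CPM at 24 h, and the 37 supporting cell and greater epithelial ridge genes took 7618 to 12108 CPM and 8978 to 15481 CPM. Other cells were present too: the 22 Schwann cell genes summed to 1781 to 3996 CPM at 6 h and 1268 to 1972 CPM at 24 h, and the 28 macrophage genes to 105 to 235 CPM and 213 to 419 CPM. In these bulk libraries, fewer cells of a type and less RNA per cell cannot be told apart.

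Between 6 h and 24 h under gentamicin 3954 genes passed an adjusted p of 0.05 in edgeR's quasi-likelihood test, 2043 higher and 1911 lower at 24 h. That is 24.2% of the genes tested, 12.5% higher and 11.7% lower, and these shares are the background for each list below. A change of at least 2-fold was reached by 895 of the genes that rose (5.49% of those tested) and 711 of those that fell (4.36%). Whether or not they passed, the 3 libraries at 24 h lay wholly above the 3 at 6 h in 22.7% of genes and wholly below in 22.2%, which is the background for the genes below whose groups did not overlap. Fewer genes were called whichever GM library was left out, and fewest without GM 6 h replicate 2, where 1081 genes were higher and 1083 lower. In CTRL 4564 genes passed, 2413 higher and 2151 lower, 28% of those tested (14.8% and 13.2%), and without CTRL 6 h replicate 2 the counts were 1338 and 1327.

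Of the 3954 genes called in GM, 3268 were also called in CTRL, 82.65% of the GM calls and 71.6% of the CTRL calls, and every one of the 3268 moved in the same direction in both. Across the 16317 genes the log2 fold changes of the 2 comparisons, which share no library, had a Pearson r of 0.867 and a Spearman rho of 0.882. This is a description across genes, which are not independent replicates. The 686 genes called in GM and not in CTRL had the same sign in CTRL in 674 cases, and the 1296 called in CTRL alone had the same sign in GM in 1276. Passing in one and not the other does not show a difference, so the difference was tested directly.

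No gene had a change over time that differed between GM and CTRL at an adjusted p of 0.05 in edgeR's quasi-likelihood test of the interaction. The number with an unadjusted p under 0.05 was 125, 0.766% of the genes tested, the smallest adjusted p was 1.00, and DESeq2's Wald test and edgeR's likelihood ratio test also called 0 genes. The number with an unadjusted p under 0.05 depended on single libraries: it was 195 without CTRL 6 h replicate 1, 191 without CTRL 6 h replicate 3, 205 without GM 6 h replicate 3 and 231 without CTRL 24 h replicate 2. The median standard error of the difference was 0.32 on the log2 scale, against a median absolute difference of 0.13. For 2682 of the 3954 GM calls, 67.8%, the 95% interval of the difference lay within a 2-fold change either way. For the other calls the interval reached past a 2-fold difference.

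**Figure D1:**
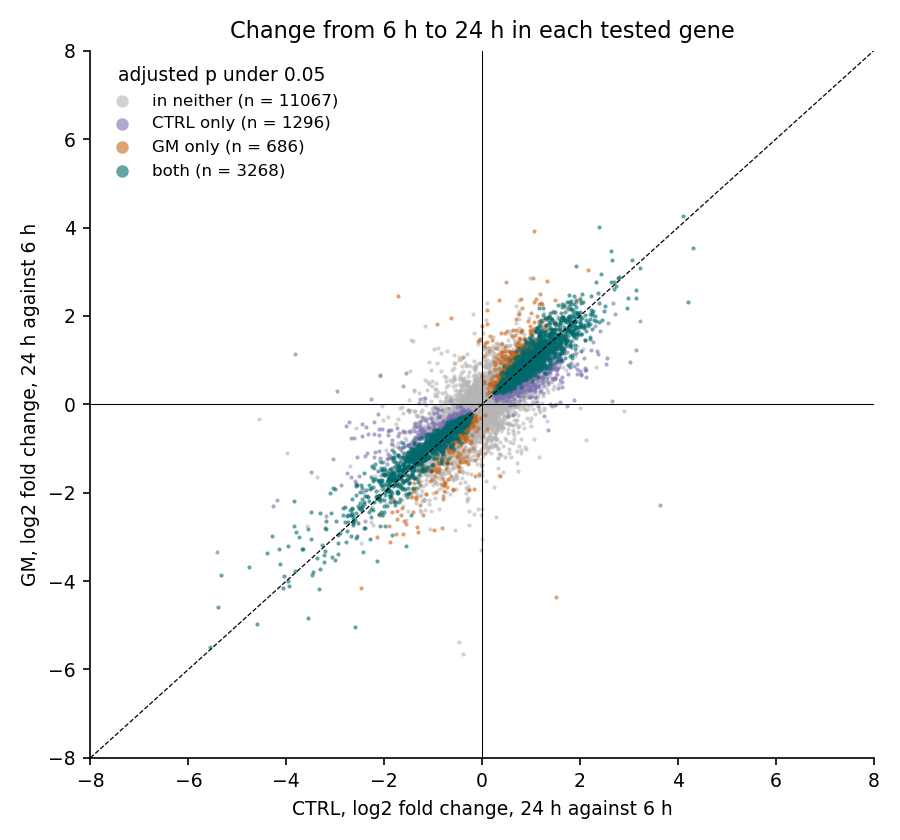
Each point is 1 of 16317 tested genes; the x axis gives its log2 fold change from 6 h to 24 h in CTRL and the y axis that in GM, and colours mark the calls (adjusted p under 0.05). The 3268 genes called in both lie in the lower left and upper right quadrants along the dashed line of equal change.

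The clearest fall concerned the integrated stress response. Of its 32 tested genes 28 fell from 6 h to 24 h in GM and 0 rose, with a median log2 fold change of -1.65, where all tested genes had a median of 0.02. In CTRL 28 also fell, 27 of them in common, with a median of -1.79. The 32 genes summed to 4881 to 5397 CPM in the GM libraries at 6 h and to 1480 to 1710 CPM at 24 h, with no overlap.

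The 250 bases before the start of 3 of these genes are shown because the ATF4 and C/EBP composite element, searched as TGATGNAA on both strands and printed in capitals, was found in each. Sequences run 5′ to 3′ on the strand of the gene and are from RefSeq on GRCm38.p6. Asns lies at chr6:7693210-7693459 on the minus strand, Chac1 at chr2:119350992-119351241 on the plus strand and Slc7a11 at chr3:50443614-50443863 on the minus strand.
Asns: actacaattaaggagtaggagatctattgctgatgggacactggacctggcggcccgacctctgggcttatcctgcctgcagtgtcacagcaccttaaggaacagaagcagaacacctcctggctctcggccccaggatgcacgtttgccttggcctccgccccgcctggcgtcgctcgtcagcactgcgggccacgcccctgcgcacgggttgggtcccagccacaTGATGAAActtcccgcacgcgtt
Chac1: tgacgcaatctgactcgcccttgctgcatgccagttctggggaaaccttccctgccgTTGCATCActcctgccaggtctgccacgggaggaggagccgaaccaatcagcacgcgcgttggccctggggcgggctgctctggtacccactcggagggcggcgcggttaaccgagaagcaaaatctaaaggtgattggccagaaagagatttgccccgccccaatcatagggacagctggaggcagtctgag
Slc7a11: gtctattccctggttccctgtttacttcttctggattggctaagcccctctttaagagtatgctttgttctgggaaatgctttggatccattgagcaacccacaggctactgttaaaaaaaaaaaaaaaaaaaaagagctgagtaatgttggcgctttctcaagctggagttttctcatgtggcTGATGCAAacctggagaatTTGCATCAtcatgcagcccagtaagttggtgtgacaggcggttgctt
The element stood in the promoter windows, which run from 250 bases before to 50 after the start, of 11 of the 28 members that had one (39.29%) and of 356 of 12624 tested genes (2.82%). Of the 24 called members with a window, 9 held it. A match is a run of letters and was not tested as a site.

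Asns, which makes asparagine, read 330, 313 and 291 CPM in the 3 GM libraries at 6 h and 22.6, 23.3 and 18.6 CPM at 24 h. The 24 h libraries were all far below the 6 h libraries, a log2 fold change of -3.86 ± 0.27 (SE) with an edgeR adjusted p of 1.2e-07. In CTRL the change was -3.47, and the difference of the 2 changes, -0.38, had an unadjusted p of 0.28.

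Chac1, which degrades glutathione and carries the element shown, read 36.2, 70.8 and 33.9 CPM at 6 h and 4.63, 5.20 and 2.87 CPM at 24 h. Its fall of 3.47 on the log2 scale was shared with CTRL, where it fell by 3.38. Fgf21, a hormone secreted under amino acid stress, and Mthfd2, a mitochondrial folate enzyme, fell by 3.80 and 3.42. Slc7a11, the cystine importer whose promoter is shown, fell by 2.18. The 3 synthesis and charging genes with the lowest p after Asns were Psat1, which makes serine, and Gars and Aars, which load glycine and alanine on their tRNAs. Psat1 read 442, 461 and 420 CPM at 6 h and 94.6, 122 and 122 CPM at 24 h. Its fall of 1.96 and those of Gars (2.14) and Aars (1.96) were within 0.07 of their falls in CTRL.

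Among the factors of the response Atf4 read 341, 462 and 340 CPM at 6 h and 145, 144 and 170 CPM at 24 h, with a log2 fold change of -1.31 (edgeR adjusted p = 0.0012), and Atf5 and Ddit3, 2 further factors of the response, fell by 2.17 and 1.61. The 4 members that did not pass were Vldlr, Gdf15, the factor Atf3 and Ddit4, at -0.44, -0.77, -0.93 and 0.11. With any 1 GM library left out, between 24 and 28 members were called lower.

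Of 22 heat shock genes 12 fell, 0 rose and 10 did not pass in GM (median -0.58), and 14 fell and 0 rose in CTRL (median -0.62; 9 fell without CTRL 6 h replicate 2 or CTRL 24 h replicate 3). Hspd1, the mitochondrial chaperonin, read 198, 226 and 190 CPM at 6 h and 81.5, 83.3 and 91.5 CPM at 24 h. The fall of 1.26 on the log2 scale (SE 0.14, edgeR adjusted p = 7.6e-06) separated all 6 libraries. Stip1, a co-chaperone of HSP90, fell by 0.76, Hsph1, a partner of HSP70, by 1.15, and Cryab, a small heat shock protein, by 0.98. Hspa8, the constitutive HSP70, fell by 0.63.

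The promoter of Hspd1 at chr1:55087933-55088182, minus strand, GRCm38.p6, is shown for the heat shock element core, searched as GAANNTTC on both strands, in capitals.
Hspd1: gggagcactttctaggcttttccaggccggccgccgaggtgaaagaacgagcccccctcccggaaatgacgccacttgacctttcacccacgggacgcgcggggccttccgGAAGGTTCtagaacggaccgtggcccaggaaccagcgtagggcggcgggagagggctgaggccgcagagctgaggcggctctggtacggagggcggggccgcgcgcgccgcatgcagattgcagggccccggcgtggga
That core was found in the windows of 10 of the 17 heat shock members with a promoter (58.82%) and of 894 of the 12624 tested genes (7.08%). Of the 8 called members with a window, 5 held it. Of 24 chaperone genes of the endoplasmic reticulum 2 rose and 3 fell (median -0.14). Only 1 rose when any library but GM 6 h replicate 3 was left out, 1 fell without GM 24 h replicate 2, and the median was 0.078 without GM 6 h replicate 3. Calr, a calcium-binding chaperone there, rose by 0.65, and Hyou1, which assists folding under low oxygen, fell by 0.64.

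Genes of the antioxidant factor NRF2 split both ways. Of 35 tested, 6 rose and 9 fell in GM (median -0.09, between -0.19 and 0.028 with 1 library left out), and 7 rose and 9 fell in CTRL. Gsr, which regenerates glutathione, read 71.2, 69.6 and 77.8 CPM at 6 h and 41.7, 37.7 and 41.2 CPM at 24 h, and Txnrd1, which reduces thioredoxin, fell by 0.87. Cat, which breaks down hydrogen peroxide, rose by 1.00. Gstm1, a glutathione transferase, read 9.34, 8.17 and 9.05 CPM at 6 h and 22.0, 18.9 and 19.8 CPM at 24 h, a rise of 1.19 in GM and of 0.86 in CTRL.

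Immediate early genes, the first transcripts made after a stimulus, fell in 11 of 36 cases and rose in 0 (median -0.68), and in CTRL 18 fell (median -0.99). The difference of the 2 changes was positive in 34 of the 36 (median 0.38, between 0.18 and 0.51 with 1 library left out), and none had an unadjusted p under 0.05 in edgeR's test. With pioglitazone the same difference was negative in 24 (median -0.12). There the mean over the 36 genes in PIO + GM at 6 h was 5.27, 5.12 and 3.77 log2 CPM. The median difference without replicate 3 of that group, the library with the fewest counts, is not given here. Fosl1, an AP-1 subunit, read 11.3, 21.7 and 12.4 CPM at 6 h and 0.992, 0.676 and 1.40 CPM at 24 h in GM. Its log2 fold change was -3.87 in GM and -5.32 in CTRL, and the difference of 1.46 had an unadjusted p of 0.16. Arc, an early gene of synapses, fell by 1.83 and Klf10, a TGF-β early gene, by 0.99, and Dusp5, a phosphatase that switches off ERK, was 5.65-fold lower at 24 h. Fos and Egr1, the best-known members, were at -0.78 and -0.48 and did not pass. Without GM 6 h replicate 2 only 6 members were called lower, and without GM 24 h replicate 3, 7.

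**Figure D2:**
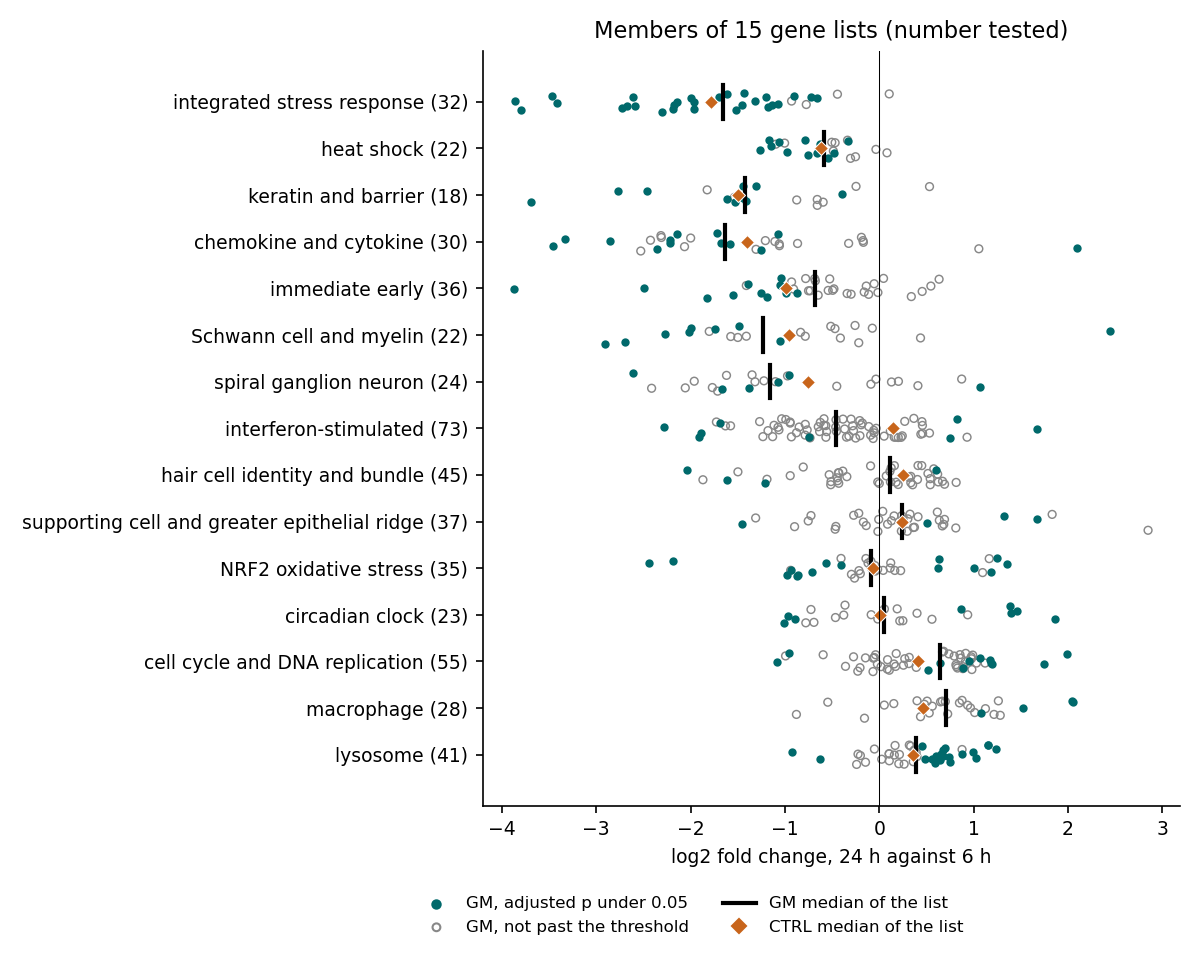
Each row is a gene list with the number of members tested in brackets; points are the log2 fold changes of the members from 6 h to 24 h in GM, filled where the adjusted p was under 0.05 and spread vertically for legibility. The black bar is the GM median and the diamond the CTRL median; they lie 0.13 apart for the integrated stress response and, among these 15 lists, furthest apart for the interferon-stimulated genes, by 0.60.

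Of 30 chemokine and cytokine genes 12 fell and 1 rose in GM (median -1.63), and 13 fell and 1 rose in CTRL (median -1.40, and -0.81 without CTRL 6 h replicate 2). Ptges, the last enzyme of prostaglandin E2 synthesis, read 127, 210 and 119 CPM at 6 h and 36.9, 29.7 and 36.4 CPM at 24 h. Lif, an interleukin-6 family cytokine, fell by 2.36 and Cxcl14, a chemokine of epithelia, by 3.46. The gene that rose was Il18, a precursor processed by the inflammasome, at 1.60, 1.26 and 2.65 CPM at 6 h and 7.19, 8.65 and 8.14 CPM at 24 h. Its rise was 2.10 in GM and 2.48 in CTRL. Ccl2, a monocyte attractant, had 9.67, 32.2 and 10.1 CPM at 6 h and 4.22, 1.69 and 3.14 CPM at 24 h. The groups did not overlap, but the change of -2.53 did not pass in GM (edgeR adjusted p = 0.056). The 12 falls came to 5 without GM 6 h replicate 2, 6 without GM 24 h replicate 1 and 7 without GM 24 h replicate 3. The 13 CTRL falls came to 7 without CTRL 6 h replicate 2 and 8 without CTRL 24 h replicate 1.

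Among proteases and their inhibitors 8 of 35 rose and 5 fell (11 and 6 in CTRL). Those that fell included Timp1 and Timp3, inhibitors of matrix metalloproteinases, by 2.39 and 1.21, Plaur, the urokinase receptor, by 2.80, and Loxl4, a collagen crosslinker, by 3.39. Mmp14, a membrane-bound metalloproteinase, rose by 0.89, a call lost without GM 6 h replicate 1 or 2 or GM 24 h replicate 1 or 2. Leaving out GM 6 h replicate 2 or GM 24 h replicate 2 left 5 rises. The 11 CTRL rises came to 5 without CTRL 6 h replicate 2 or CTRL 24 h replicate 1 and 6 without CTRL 6 h replicate 1 or CTRL 24 h replicate 3. Timp1 read 45.6, 68.7 and 67.1 CPM at 6 h and 9.59, 12.6 and 12.3 CPM at 24 h.

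Keratin and barrier genes fell in 10 of 18 cases and rose in 0 (median -1.43; 13 fell in CTRL, median -1.50). Krt8, a keratin of simple epithelia, read 217, 192 and 279 CPM at 6 h and 65.0, 90.1 and 84.2 CPM at 24 h, and its partner Krt18 fell by 1.44. Sprr1a, a cornified envelope protein, read 18.7, 15.8 and 10.0 CPM at 6 h and 1.57, 0.608 and 1.27 CPM at 24 h. In each of these genes every 24 h library was below every 6 h library. Without GM 24 h replicate 1 or 3, 6 members were called lower. Perp, a desmosomal protein that is also a p53 target, fell by 1.30.

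The steepest falls outside these lists included Tfpi2, a protease inhibitor of the extracellular matrix, which read 29.9, 47.7 and 38.4 CPM at 6 h and 1.24, 0.676 and 0.667 CPM at 24 h. Its log2 fold change was -5.50 ± 0.54 (SE) in GM and -5.55 in CTRL. Ngef, a guanine nucleotide exchange factor, fell by 4.17 and Klhdc8a by 4.00. The changes of these 3 genes differed from those in CTRL by 0.049, -0.096 and -0.026.

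Gjb1 and Pmp2 also stood among the largest falls, and both are genes of myelinating Schwann cells, a gap junction protein and a myelin lipid carrier. Gjb1 read 15.1, 32.5 and 8.16 CPM at 6 h and 0.91, 0.203 and 0.667 CPM at 24 h, where it rested on 11, 3 and 10 counts. Pmp2 read 24.5, 31.2 and 10.1 CPM at 6 h and 1.24, 0.608 and 0.467 CPM at 24 h. In the Schwann cell and myelin list 8 of 22 genes fell and 1 rose in GM (median -1.23), against 6 and 1 in CTRL (median -0.95, and -0.62 without CTRL 6 h replicate 2). The 8 falls came to 1 without GM 6 h replicate 2, to 2 without GM 24 h replicate 3, to 3 without GM 24 h replicate 2 and to 5 without GM 6 h replicate 1. The 6 CTRL falls came to 1 without CTRL 6 h replicate 2 or CTRL 24 h replicate 3, to 2 without CTRL 24 h replicate 1 and to 3 without CTRL 24 h replicate 2.

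Within that list Mag, an adhesion protein of myelin, fell by 2.69, a call lost without GM 6 h replicate 2 or GM 24 h replicate 3. Sox10, the factor that marks the lineage, was at -0.22 and did not pass. The member that rose, S100b, which supporting cells also express, read 62.7, 89.1 and 117 CPM at 6 h and 515, 266 and 688 CPM at 24 h, a rise of 2.45 in GM and of 2.22 in CTRL. Neuronal genes fell in 5 of 24 cases and rose in 1 (median -1.16; 3 and 1 in CTRL, median -0.76). Gap43, of growing axons, fell by 1.07 and Tubb3, neuronal tubulin, by 1.67. Without GM 6 h replicate 1 or 2 or GM 24 h replicate 2 or 3, 3 neuronal genes were called lower, and without GM 6 h replicate 3, 8. In CTRL 1 fell without CTRL 24 h replicate 1 or 3 and 8 without CTRL 24 h replicate 2, and the median lay between -1.74 and -0.41. The rise was lost in GM without GM 6 h replicate 3 or GM 24 h replicate 1 or 3, and in CTRL without CTRL 6 h replicate 1 or 2 or CTRL 24 h replicate 1.

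**Figure D3:**
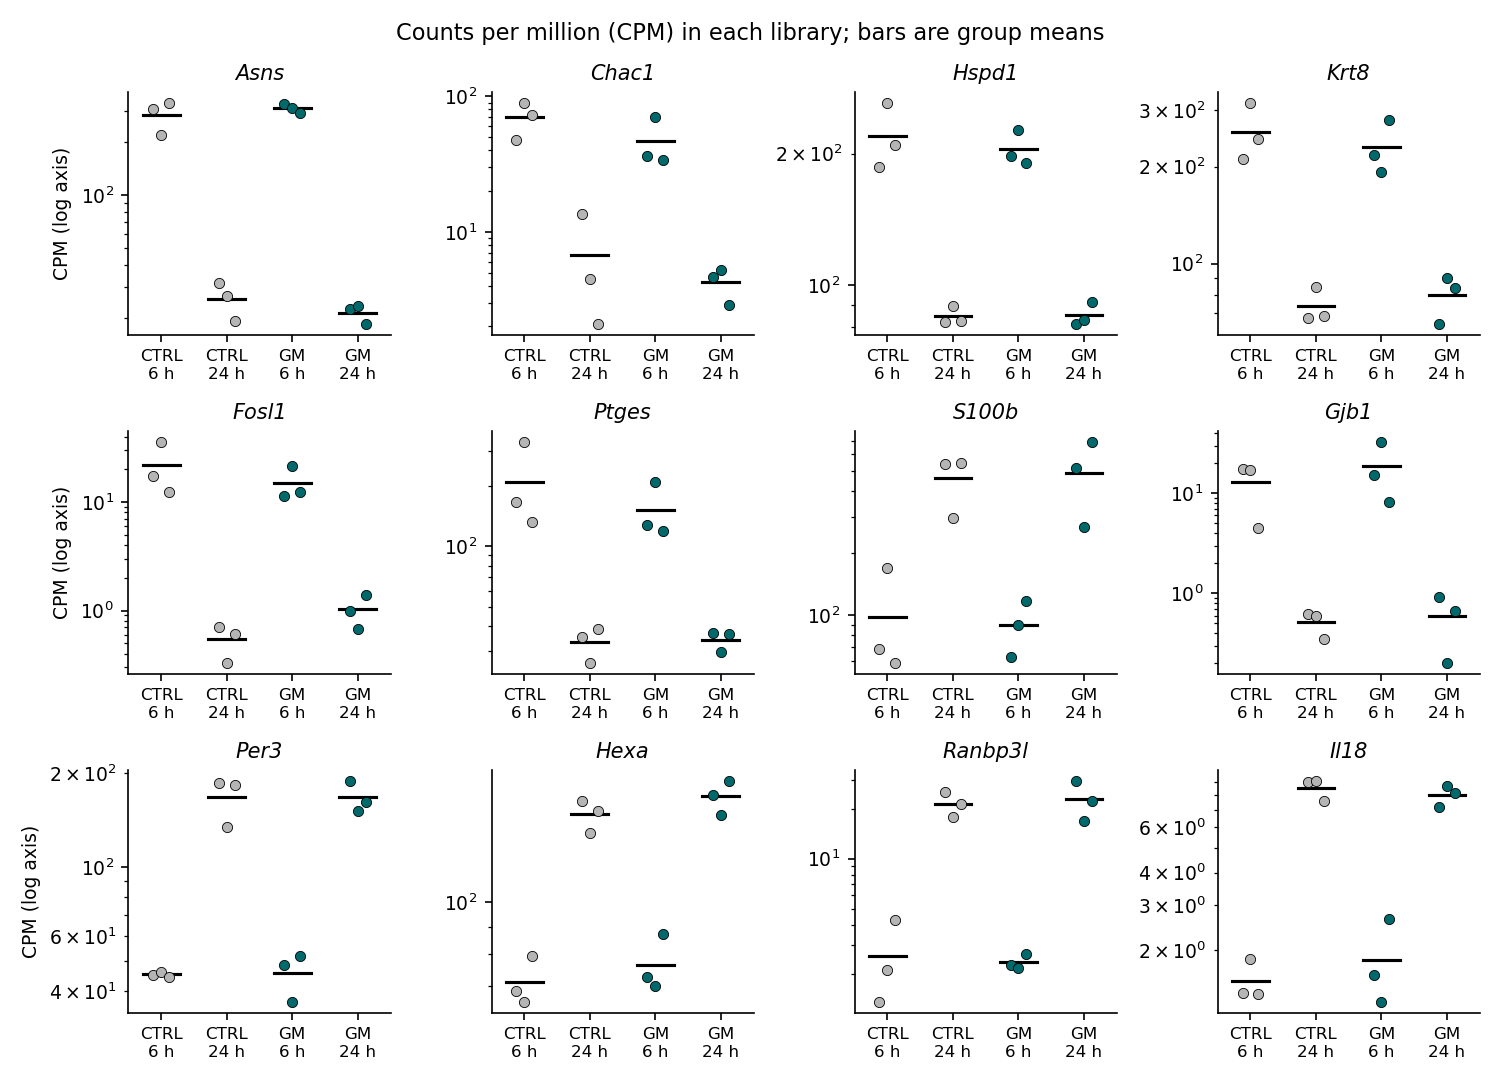
CPM on log axes for 12 genes in each of the 12 CTRL and GM libraries, with bars at the group means; each panel has its own axis range. In all 12 panels the 3 GM libraries at 24 h lie wholly above or wholly below the 3 at 6 h, and the CTRL libraries take the same direction. The genes were picked from the GM calls, some by a rule that their GM libraries not overlap, so the separation in GM is no separate result.

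The genes that rose most included Ranbp3l, a Ran-binding exporter of SMADs, at 2.27, 2.19 and 2.65 CPM at 6 h and 29.4, 16.8 and 22.4 CPM at 24 h. Its log2 fold change was 3.26 ± 0.38 (SE) in GM (edgeR adjusted p = 1.1e-05) and 3.06 in CTRL. Zfp648, a zinc finger gene, went from 2, 7 and 13 counts to 108, 65 and 84 counts, a change of 3.47. Rbpjl, a relative of the Notch effector RBPJ, rose by 2.88, Rxfp3, a relaxin-family receptor, by 2.61, and Noxa1, an activator of NADPH oxidase, by 2.51. The paralogs Selenbp1 and Selenbp2 rose by 2.77 and 2.94, but they are close copies and reads could have been split between them. Atp6v1b1, a proton pump subunit of epithelia, rose by 2.49 in GM and was at 1.18 in CTRL without passing. Its difference of 1.31 had an unadjusted p of 0.21 and turned negative without CTRL 6 h replicate 3. Its call in GM was lost without GM 6 h replicate 2 or 3 or GM 24 h replicate 2.

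Of 41 lysosomal genes tested, 18 rose, 2 fell and 21 did not pass in GM (median 0.39), and 20 rose and 2 fell in CTRL (median 0.36), with 17 risen in both. Hexa, a subunit of β-hexosaminidase, read 72.7, 69.8 and 87.3 CPM at 6 h and 157, 145 and 167 CPM at 24 h. The rise of 1.03 on the log2 scale (SE 0.14, edgeR adjusted p = 4.1e-05) was the same in CTRL to the second decimal. Ctsa and Ctsf, lysosomal proteases, rose by 0.75 and 0.69.

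The promoter of Ctsd, the aspartic protease of the lysosome, is shown with the E-box CACGTG in capitals, the core of the element that TFEB binds. It lies at chr7:142387828-142388077 on the minus strand of GRCm38.p6.
Ctsd: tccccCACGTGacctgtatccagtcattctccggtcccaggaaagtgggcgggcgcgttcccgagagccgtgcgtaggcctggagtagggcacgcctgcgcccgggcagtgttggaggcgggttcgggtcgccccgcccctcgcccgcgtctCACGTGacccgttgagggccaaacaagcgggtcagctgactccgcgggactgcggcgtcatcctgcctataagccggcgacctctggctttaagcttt
The E-box was in the windows of 12 of 32 lysosomal members with a promoter (37.5%) and of 1382 of the 12624 tested genes (10.95%). Of the 16 called members with a window, 6 held it, and whether it goes with the change over time was not tested. Ctsd read 397, 374 and 490 CPM at 6 h and 699, 592 and 723 CPM at 24 h, and rose by 0.68. Mcoln1, the calcium channel of the lysosome, was at 0.33 without passing. With 1 GM library left out, 13 to 17 members were called higher and 1 or 2 lower.

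Genes of the circadian oscillator moved in opposite directions. Of 23 tested, 5 rose and 3 fell in GM, and the same 5 and 3 were called in that direction in CTRL. Per3, a period gene, read 48.4, 37.0 and 51.9 CPM at 6 h and 189, 151 and 161 CPM at 24 h. Dbp and Tef, output factors of the clock, rose by 1.39 and 1.46. Arntl, the activator that drives the loop, fell by 0.96 in GM and 0.90 in CTRL. The 18 h between samples are not a whole cycle, so time in culture and clock phase cannot be told apart.

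Cell cycle genes were higher at 24 h in 10 of 55 cases and lower in 2 (median 0.64, and 0.22 without GM 24 h replicate 2), but without GM 24 h replicate 2 none was called higher in edgeR's test, without GM 6 h replicate 1 or 2 only 1, and without GM 24 h replicate 1, 15. In CTRL 11 were higher and 2 lower (median 0.41, and 0.077 without CTRL 24 h replicate 2), 7 of them higher in both. The CTRL rises came to 3 without CTRL 6 h replicate 2, 4 without CTRL 24 h replicate 2, 6 without CTRL 6 h replicate 1 and 7 without CTRL 24 h replicate 1. Bub1b, a spindle checkpoint kinase, rose by 1.07 and Tk1, thymidine kinase, by 1.74, whereas Mki67, the usual mark of cycling cells, was at 0.67 and did not pass. The 2 that fell were Cdkn1a, the p53-driven inhibitor p21, by 1.08, and Ccnd1, cyclin D1, by 0.96. The call of Ccnd1 held only without GM 24 h replicate 2, that of Bub1b was lost without that library, and that of Tk1 without it or GM 6 h replicate 1 or 2. Leaving out any GM library but GM 24 h replicate 2 left 1 cell cycle gene called lower. Cdkn1a read 109, 121 and 135 CPM at 6 h and 56.1, 62.1 and 53.8 CPM at 24 h. Of 34 p53 targets 5 rose and 7 fell (median -0.02, between -0.093 and 0.13 with 1 library left out): Aen, a nuclease of apoptosis, fell by 1.74 and Sesn1, a stress-induced brake on mTOR, rose by 1.20. Only 3 targets rose without GM 6 h replicate 2 or GM 24 h replicate 2.

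In the BCL2 family and executioner caspases, which decide on and carry out apoptosis, 3 of 27 genes rose and 5 fell (median 0.07, between -0.037 and 0.17 with 1 library left out). Mcl1, a short-lived survival factor, read 193, 222 and 207 CPM at 6 h and 127, 132 and 132 CPM at 24 h and fell by 0.67, and Bid, which links death receptors to mitochondria, fell by 0.62. Bmf, which opposes BCL2, rose by 1.31. The call of Bid was lost without GM 6 h replicate 2 or GM 24 h replicate 1. Without GM 24 h replicate 1, 1 member rose and 2 fell, and without GM 6 h replicate 2, 1 and 3. The falls came to 3 without each of the other 4 GM libraries. In CTRL 4 rose and 4 fell, with 1 rise without CTRL 24 h replicate 2 and 2 without CTRL 6 h replicate 2 or CTRL 24 h replicate 1 or 3, and no member had an unadjusted p under 0.05 for the difference.

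HC genes, the cells that gentamicin kills, mostly did not pass between 6 h and 24 h: of 45 tested, 1 rose, 3 fell and 41 did not pass (median 0.11, between -0.14 without GM 6 h replicate 3 and 0.28 without GM 6 h replicate 1). In CTRL 1 rose and 1 fell (median 0.25, between -0.073 without CTRL 6 h replicate 2 and 0.70 without CTRL 6 h replicate 3), and the rises came to 11 without the latter. The fall in CTRL was lost without CTRL 6 h replicate 2 or any 1 CTRL library at 24 h. Pvalb, a calcium buffer, read 29.4, 32.9 and 10.3 CPM at 6 h and 6.70, 5.54 and 5.47 CPM at 24 h, and its change of -2.03 (edgeR adjusted p = 0.0081) stood beside -1.14 in CTRL. Slc17a8, the glutamate carrier of inner HC synapses, fell by 1.62 in GM and 1.46 in CTRL, and Calb2, another calcium buffer, by 1.21 in GM. Both Pvalb and Calb2 are also expressed by spiral ganglion neurons. Myo6, a motor at the base of the hair bundle, rose by 0.60. Without GM 6 h replicate 2 or GM 24 h replicate 3 the calls of Slc17a8, Calb2 and Myo6 were all lost. The 3 falls came to 1 without GM 6 h replicate 2 or GM 24 h replicate 2. The calls of Calb2 and Myo6 were also lost without GM 24 h replicate 1, those of Slc17a8 and Calb2 without GM 24 h replicate 2, that of Calb2 without GM 6 h replicate 1 and that of Myo6 without GM 6 h replicate 3.

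Slc26a5, which encodes the outer HC motor prestin, read 33.9, 40.9 and 19.3 CPM in the GM libraries at 6 h and 7.77, 0.676 and 17.2 CPM at 24 h. In CTRL it read 40.5, 28.5 and 22.8 CPM at 6 h and 43.6, 5.62 and 60.4 CPM at 24 h. Every GM library at 24 h was below every GM library at 6 h, whereas the CTRL time points overlapped. The GM change of -1.87 did not pass (edgeR adjusted p = 0.13), and neither did the difference from CTRL of -2.12 (95% interval -4.66 to 0.42, unadjusted p = 0.097). Otof, needed for release at HC synapses, was at -0.43 in GM and 0.22 in CTRL, Ocm, the outer HC calcium buffer, at -1.19 and 0.59, and Tmc1, a mechanotransduction channel subunit, at -0.51 and 0.74, none of them past the threshold. In GM Pou4f3, the HC survival factor, was at 0.63 and Myo7a, the bundle myosin, at 0.18, neither past the threshold. Over the 45 genes the median difference between GM and CTRL was -0.21, 32 were negative and 1 had an unadjusted p under 0.05, beside 0.766% of all genes. Leaving out 1 library moved that median between -0.65 and -6.5e-04. In the libraries with pioglitazone the same difference had a median of -0.31, 35 negative genes and 4 with an unadjusted p under 0.05, beside 1.51% of all genes.

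GM and CTRL were also compared directly at 24 h in these genes. The mean over the 45 HC genes, in log2 CPM, was 3.94, 3.70 and 4.21 in the GM libraries and 4.44, 4.28 and 4.53 in the CTRL libraries at 24 h, with no overlap. At 6 h it was 4.48, 4.19 and 3.61 in GM and 4.18, 3.62 and 4.70 in CTRL, and the groups overlapped. At 24 h 35 of the 45 genes were lower in GM (median -0.36), and 9 had an unadjusted p under 0.05, beside 1.67% of all genes.

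Same-numbered GM and CTRL libraries deviated together at 24 h, and the GM library was the lower of each pair, by 0.50, 0.58 and 0.32 in the HC mean. The supporting cell and greater epithelial ridge list was also lower in GM in all 3 pairs, by 0.19, 0.33 and 0.21 in its mean, with 29 of 37 genes lower (median -0.14) and 1 with an unadjusted p under 0.05, and its part in the HC values was not tested. Slc26a5 was lower in GM in all 3 pairs as well. Its level at 24 h differed between GM and CTRL by -2.09 without passing, whereas with the replicate number as a block, an alternative chosen after seeing the data, the difference of -2.21 ± 0.30 (SE) passed (edgeR adjusted p = 0.0097). That fit called 12 of all genes (0.0735%) and 2 of the 45 HC genes, both lower in GM, and 13 of the 45 had an unadjusted p under 0.05, beside 2.49% of all genes. The second was Kcna10, a potassium channel of hair bundles, at -1.76 (edgeR adjusted p = 0.017).

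Supporting cell genes were called in 4 of 37 cases, 3 higher and 1 lower, and all 4 were called in the same direction in CTRL. Gjb6, connexin 30, read 64.5, 51.2 and 127 CPM at 6 h and 207, 196 and 203 CPM at 24 h, a rise of 1.32 in GM and 1.29 in CTRL. The 3 rises came to 1 without GM 6 h replicate 1 or 2, and 2 genes fell without GM 6 h replicate 3. Lgr6, a Wnt co-receptor of supporting cells with progenitor traits, fell by 1.45. Sox2, which marks the supporting cell layer, was at 0.36 in both. Among candidates for aminoglycoside entry 1 of 14 rose and 1 fell: Piezo1, a mechanically gated channel, read 178, 212 and 252 CPM at 6 h and 61.7, 97.2 and 60.3 CPM at 24 h. Without GM 6 h replicate 1 or 2 or GM 24 h replicate 1 or 2, 0 of the 14 were called higher in edgeR's test. Lrp2, megalin, was at 0.45 and did not pass.

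Macrophage genes rose in 4 of 28 cases and fell in 0 (median 0.71; 3 and 0 in CTRL, median 0.46). The GM median was 0.35 without GM 24 h replicate 2 and 1.09 without GM 6 h replicate 3, and the CTRL median 0.89 without CTRL 6 h replicate 2. Lyz2, lysozyme, read 4.63, 5.39 and 19.7 CPM at 6 h and 20.8, 58.3 and 44.4 CPM at 24 h, and H2-Ab1, a class II antigen presentation chain, read 1.93, 1.01 and 5.85 CPM and 14.8, 14.5 and 8.01 CPM. Csf1r and Adgre1, which define the lineage, were at 0.51 and 0.53 and did not pass. No member was called without GM 6 h replicate 1 or 2 in edgeR's test, whereas 7 were without GM 6 h replicate 3, 1 without GM 24 h replicate 2 and 2 without GM 24 h replicate 3. In CTRL 1 rose without CTRL 6 h replicate 1 or 3.

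The GM and CTRL medians of the interferon-stimulated genes lay 0.60 apart, the widest gap among 28 lists after that of the genes the study names (0.64), although no single gene passed the test of the difference. Of 73 tested, 3 rose and 5 fell in GM (median -0.45, between -0.68 without GM 24 h replicate 1 and -0.21 without GM 24 h replicate 2), and 9 rose and 2 fell in CTRL (median 0.15). Leaving out 1 CTRL library moved the CTRL rises between 2, without CTRL 24 h replicate 3, and 10 and the CTRL median between -0.087 and 0.62. The CTRL rises also came to 4 without CTRL 6 h replicate 3 and 5 without replicate 1 at either time, and the CTRL falls to 0 without CTRL 6 h replicate 2 or CTRL 24 h replicate 1 and to 1 without CTRL 6 h replicate 1 or CTRL 24 h replicate 2. The mean over the 73 genes, in log2 CPM, was 3.87, 4.36 and 4.55 in the GM libraries at 6 h and 4.16, 3.33 and 3.92 at 24 h. In CTRL it was 3.19, 3.79 and 2.56 at 6 h and 3.41, 2.76 and 3.91 at 24 h. All 3 GM libraries at 6 h lay above all 3 CTRL libraries at 6 h, and in the other 3 comparisons of these groups the libraries overlapped. At 24 h, where same-numbered GM and CTRL libraries deviated together, the GM library of each of the 3 pairs was the higher, by 0.74, 0.56 and 0.0098. At that time 69 of the 73 genes were higher in GM than in CTRL (median 0.34), and at 6 h 73 were (median 1.01), none past the threshold in edgeR's test and with an unadjusted p under 0.05 in 4 at 24 h and 49 at 6 h, beside 1.67% and 1.49% of all genes. The replicate block at 24 h called none of them in edgeR's test and gave 5 with an unadjusted p under 0.05. The 3 rises in GM came to 0 in edgeR's test without GM 6 h replicate 2, and lay between 0 and 4 with 1 GM library left out. The 5 falls came to 2 without GM 6 h replicate 2 and 3 without GM 24 h replicate 2.

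The difference of the time change, GM minus CTRL, had a median of -0.63 over the 73 genes, beside -0.01 over all tested genes. It was negative in 69, and 3 genes had an unadjusted p under 0.05. A difference of 1 sign in most members was not particular to this list, since the immediate early genes had it in 34 of 36. Leaving out 1 library moved the median between -1.01 and -0.34. In the PIO and PIO + GM libraries, which that comparison does not use, the same difference made by gentamicin had a median of -0.78, was negative in 66 and had an unadjusted p under 0.05 in 9, where 1.51% of all genes had one. That share rests on 247 genes, and there were 614 without PIO + GM 6 h replicate 1, 1123 without PIO 6 h replicate 2 and 449 without PIO + GM 6 h replicate 3. Library composition moved with it there: Spearman's correlation of that difference with GC content across genes was 0.22, beside 0.08 for GM minus CTRL, and the part of GC content in it was not tested. The mean over the 73 genes, in log2 CPM, was 5.00, 4.03 and 3.64 in PIO + GM at 6 h and 3.28, 2.92 and 2.67 at 24 h. In PIO it lay between 3.03 and 3.55 at 6 h and between 2.66 and 2.76 at 24 h. The median difference without PIO + GM 6 h replicate 1, the highest of these libraries, is not given here.

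Within the list, Ifi204 and Ifi205, DNA-sensing members of 1 gene cluster whose close copies can share reads, fell in GM by 1.89 and 2.28. Ifi204 read 5.47, 6.23 and 7.89 CPM at 6 h and 1.65, 2.03 and 1.60 CPM at 24 h. It fell in CTRL as well, by 1.40. Nlrc5, the regulator of class I antigen presentation, fell by 1.69 in GM and was at -0.80 in CTRL, a call lost without GM 6 h replicate 2 or 3 or GM 24 h replicate 2. Isg15, the ubiquitin-like modifier, read 9.51, 14.3 and 12.7 CPM at 6 h and 7.36, 3.11 and 4.74 CPM at 24 h. The groups did not overlap, but the change of -1.27 had an edgeR adjusted p of 0.098, and CTRL was at -0.26. Irf7, the factor that amplifies interferon, was at -0.94 in GM and 0.43 in CTRL, and the difference of -1.37 had an unadjusted p of 0.13.

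The 3 members with an unadjusted p under 0.05 for the difference were Gbp6, Gbp10 and Parp9, named after their values were seen. Gbp10, a guanylate-binding protein, rose in both, by 0.84 in GM and 1.79 in CTRL, the former not without GM 6 h replicate 2. Gbp6 was at 0.46 and 1.34, and Parp9 at -0.25 and 0.63. Among Toll-like receptor and NF-κB genes 1 of 38 rose and 1 fell in GM (median -0.07, between -0.12 and -0.013 with 1 library left out). Pias1, a SUMO ligase, read 58.2, 55.9 and 58.6 CPM at 6 h and 76.5, 71.8 and 71.7 CPM at 24 h and rose by 0.35 in GM and 0.43 in CTRL. That call was lost when any 1 GM library was left out. The fall was lost without GM 6 h replicate 2 or GM 24 h replicate 3, and 2 genes fell without GM 24 h replicate 2. Tlr4, Tlr2, Myd88, Tirap and Irf3, which carry these signals, lay between -0.48 and 0.07 in GM and none passed.

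**Figure D4:**
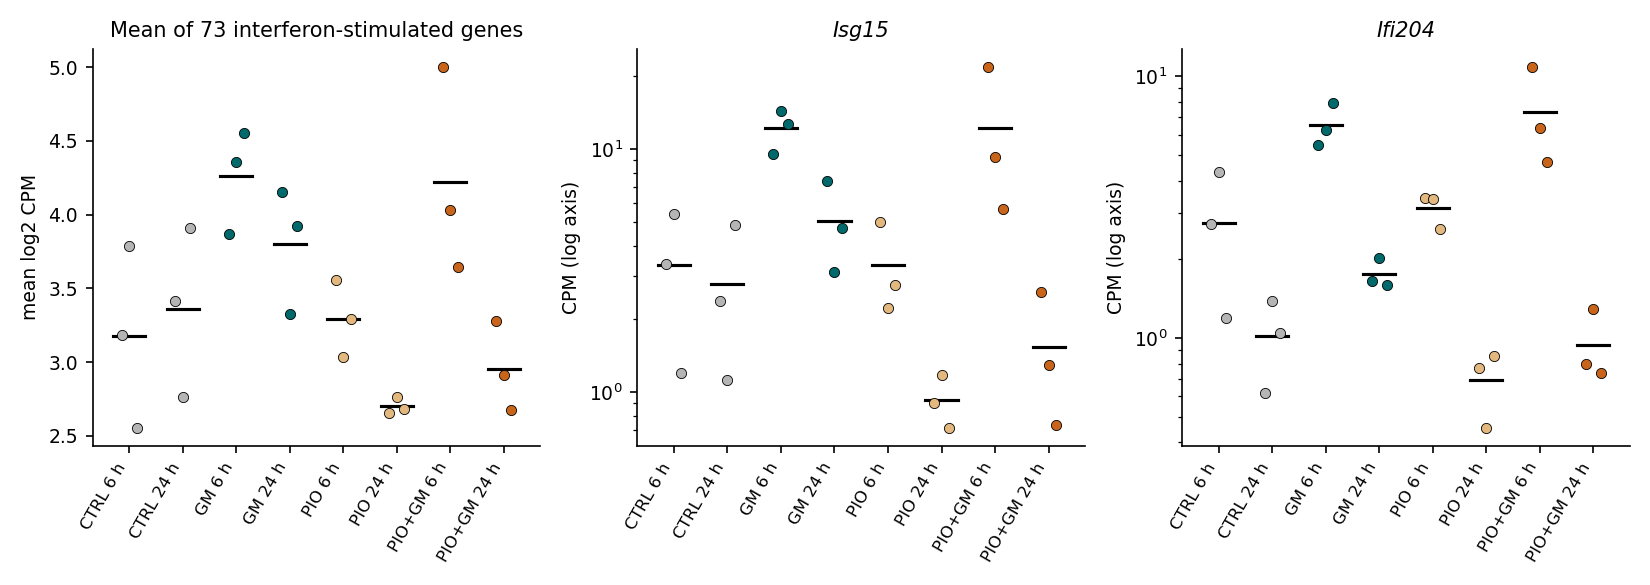
Left, the mean log2 CPM of 73 interferon-stimulated genes in each of the 24 libraries; middle and right, the CPM of Isg15 and Ifi204 on log axes, with bars at group means. GM libraries at 6 h lie above CTRL libraries at 6 h in all 3 panels, and at 24 h the 2 groups overlap in the left and middle panels.

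The 6 genes with the lowest unadjusted p for the difference between GM and CTRL, none of which passed, were Tmem145, Crx, Gm3336, Acod1, Slc45a3 and Pde4c. Tmem145, a membrane protein gene, read 3.36, 3.71 and 2.38 CPM in GM at 6 h and 1.07, 1.49 and 0.467 CPM at 24 h. It was called lower in GM (-1.63, edgeR adjusted p = 0.0023) and was at 0.37 in CTRL, and the difference of these changes had an unadjusted p of 4.8e-04. In the libraries with pioglitazone the same difference was -1.75 (unadjusted p = 0.0022). Slc45a3, a sugar transporter of oligodendrocytes and prostate, read 9.34, 9.52 and 9.12 CPM at 6 h and 2.73, 2.97 and 3.67 CPM at 24 h in GM and did not move beyond its spread in CTRL (-0.06). The difference of -1.51 (unadjusted p = 0.0019) was -0.36 with pioglitazone (unadjusted p = 0.41).

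Crx, a photoreceptor transcription factor, read 2.19, 1.85 and 1.84 CPM at 6 h and 2.81, 3.04 and 3.40 CPM at 24 h in GM. In CTRL it read 0.643, 0.529 and 0.639 CPM at 6 h and 0.176, 0 and 0.262 CPM at 24 h. GM libraries were above CTRL libraries at both times, the change was 0.66 in GM and -2.09 in CTRL, and the difference of 2.75 had an unadjusted p of 6.1e-04. The CTRL values at 24 h lay at or below about 3 counts a library, so the size of the CTRL change and of that difference is uncertain. With pioglitazone the difference was 3.09 (unadjusted p = 2.1e-04). Crx and Fer1l4 were the 2 genes called between GM and CTRL at 24 h in edgeR's quasi-likelihood test, 0.0123% of those tested, and both were among the 12 called with the replicate block. Fer1l4, a ferlin-family gene, was called higher in GM by 1.07, a call lost without GM 6 h replicate 1 or 3 or GM 24 h replicate 2 or 3, and was at -0.39 in CTRL (difference 1.46, unadjusted p = 0.024). With pioglitazone its difference was 3.38, the lowest unadjusted p of that comparison at 5.9e-06 (edgeR adjusted p = 0.097).

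Pde4c, a cyclic AMP phosphodiesterase, read 2.52, 3.37 and 2.11 CPM at 6 h and 3.56, 3.04 and 3.27 CPM at 24 h in GM, and 0.804, 6.97 and 2.48 CPM at 6 h and 0.527, 0.330 and 0.436 CPM at 24 h in CTRL. Its difference of 3.27 (unadjusted p = 0.0020) was 3.17 with pioglitazone (unadjusted p = 0.0024). Gm3336, a predicted gene, ends 1199 bases before Pde4c on chromosome 8 in RefSeq's GRCm38.p6, so the 2 are neighbours. It held 0, 0 and 1 counts in CTRL at 24 h and 19, 24 and 18 in GM, and no fold is given for it. Acod1, which makes itaconate in activated macrophages, held 9, 14 and 23 counts in GM at 6 h and 1, 0 and 1 at 24 h. In CTRL at 24 h 1 library held 34 counts and the others 3 and 0, so its difference rests on that library. The fall in GM (edgeR adjusted p = 0.016) was lost without GM 24 h replicate 2.

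**Figure D5:**
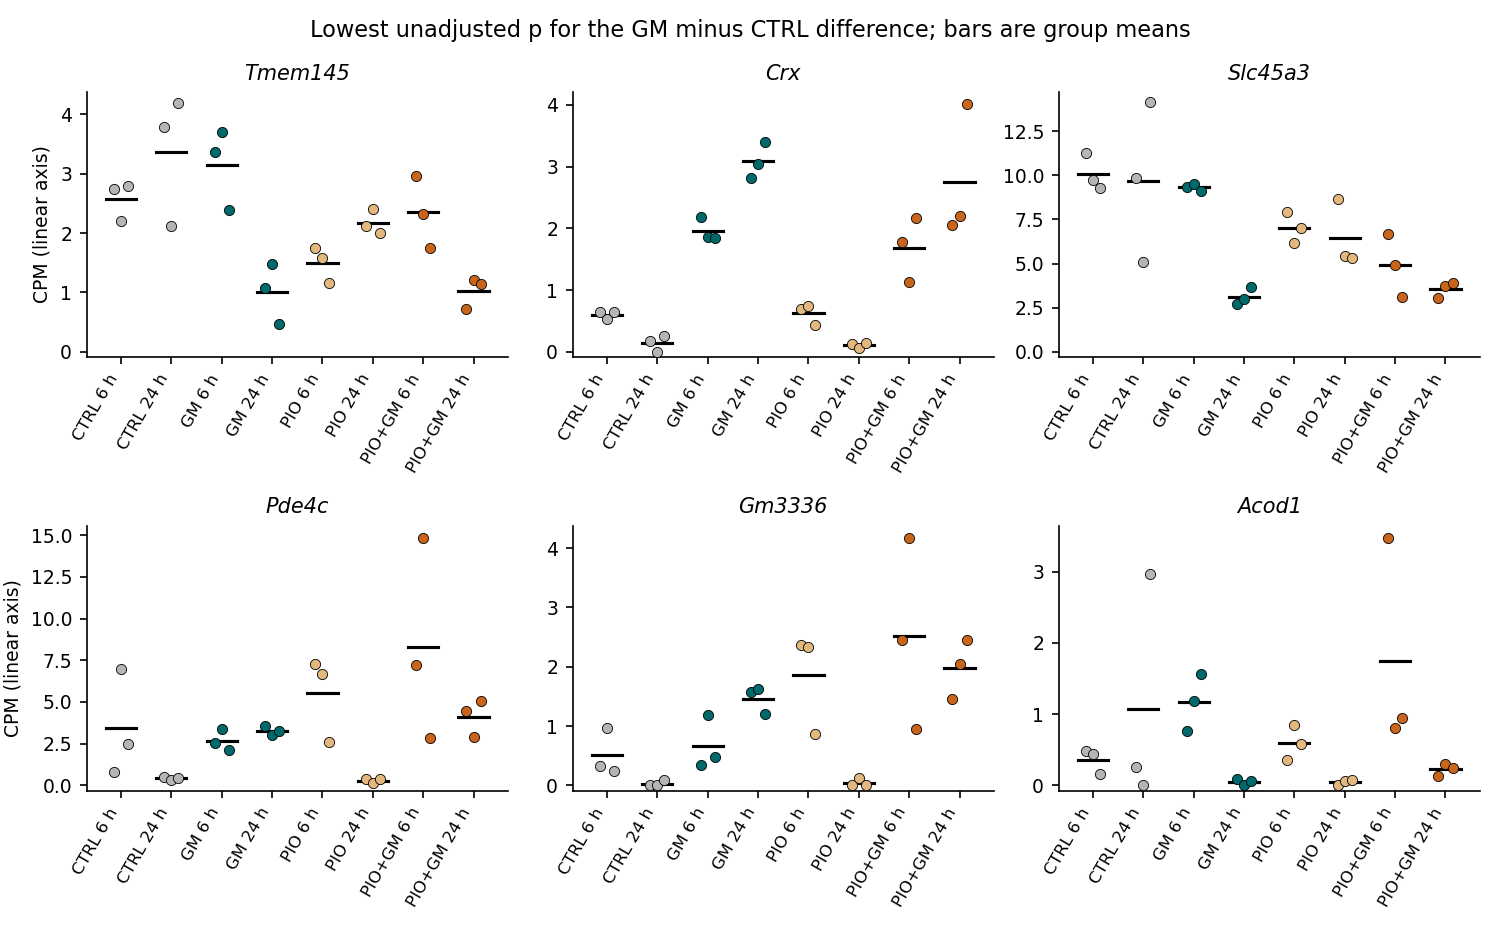
CPM on linear axes for the 6 genes with the lowest unadjusted p for the GM minus CTRL difference, in all 24 libraries, with bars at group means. Crx is higher in every library with gentamicin than in every library without it, and in Acod1 1 CTRL library at 24 h lies far above the other 2.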

How the data were processed

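RNA from pools of 6 OCs was sequenced from stranded total RNA libraries, and the authors deposited raw read counts per gene, made from reads starting in exons of RefSeq genes after alignment with STAR to mm10, as the submitters' processing notes and the methods name them. How strand and reads with several positions were handled is not given in the sources used here. All 24 columns matched a labelled library, and 0 columns of other samples were found. Total counts ran from 7211357 to 15548856, and the 80 rows without a symbol in the tables used were not named.

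Genes passing filterByExpr (16317) were fitted in edgeR 4.0.16 (R 4.3.3) with TMM factors and 1 mean for each of 8 groups. Quasi-likelihood tests gave GM and CTRL 24 h against 6 h and the difference of these changes, adjusted after Benjamini and Hochberg with a threshold of 0.05. CPM values used library totals scaled by TMM. Scripts were tested on simulated data. Alternatives were other scaling, filters, DESeq2 1.42.0, a likelihood ratio test, fewer groups, covariates, blocks and each library left out.

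The genes, gene lists and motifs were chosen with earlier results of these data known. The text names the 8 genes with the largest change in each direction (adjusted p under 0.05, libraries not overlapping, mean log2 CPM of at least 1, no predicted models), the 4 lowest p of each list, the 6 lowest p of the difference, genes the study names, and Crx and Fer1l4. Of these, the members that carry a result are printed, and some genes are not reported here. Other genes were named outside that rule, as defining markers or after their values were seen: Adgre1, Arntl, Atf3, Atf4, Atf5, Ccnd1, Chac1, Csf1r, Ctsd, Ddit3, Ddit4, Egr1, Fgf21, Fos, Gbp6, Gbp10, Gdf15, Hspa8, Kcna10, Mcoln1, Mki67, Mmp14, Mthfd2, Myo7a, Ocm, Otof, Parp9, Pou4f3, Slc26a5, Slc7a11, Sox10, Sox2, Tmc1 and Vldlr.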

Additional observations from a re-analysis of the deposited data

How the results depend on the processing

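Over the alternatives run, the counts of genes called in GM and CTRL stayed within 1.5 times the counts given, except when 1 library at 6 h was left out. Leaving out each library in turn gave 1081 to 1913 genes higher and 1083 to 1819 lower in GM, and 1338 to 2258 higher and 1327 to 2037 lower in CTRL, the lowest in each without replicate 2 at 6 h. DESeq2's Wald test called 2250 higher and 2349 lower in GM, and removing the GC trend from each library, an alternative chosen after seeing the data, 2617 and 2494. The difference between GM and CTRL had 0 calls under every alternative. The PIO + GM minus PIO difference had 0 calls higher, 6 with the likelihood ratio test and 0 to 1 with a library left out. The number of genes with an unadjusted p under 0.05 for the GM minus CTRL difference, 125, was 324 with no filter, 57 with at least 10 counts in every library and 236 with a replicate block within time, and that of the PIO + GM minus PIO difference, 247, was 642, 125 and 419. Leaving out 1 library moved a count of calls by over 1.5 times in 24 of 28 lists in GM and in 21 in CTRL. The cause was not tested. At 24 h replicate 2 had the fewest genes with a count in GM (18919) and in CTRL (18592). Spearman's correlation of its deviation with GC content across genes was 0.39 in GM, beside 0.12 and 0.10 in the other GM libraries at 24 h. In CTRL it was 0.30, beside 0.01 and 0.04. Same-numbered GM libraries at 6 h and 24 h did not deviate together (correlations 0.205, -0.155 and -0.138), and with a replicate block GM gave 2218 genes higher and 2118 lower. At 24 h same-numbered GM and CTRL libraries did (0.533, 0.777 and 0.734), at 6 h not all of them, and the difference with a replicate block within time again called 0 genes. GM against CTRL at 24 h called 2 genes, and 12 with that block, an alternative chosen after seeing the data.

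Of 102 GM calls on genes named, 80 held whichever GM library was left out. Many of these genes were picked for a low p or a large change, so that share does not describe all GM calls. Over all genes, between 2164 and 3732 were called in GM with 1 GM library left out, beside 3954 with none left out. Values that changed sign lay near 0 or did not pass: with a covariate for olfactory and vomeronasal receptor counts, Csf1r was at -0.0036 and Irf3 at -0.0347. Leaving out each library in turn moved Csf1r in GM between -0.25 and 0.86, Ddit4 between -0.22 and 0.50, Irf3 between -0.012 and 0.20 and Tlr4 between -0.40 and 1.2e-04. In CTRL it moved Slc26a5 between -0.32 and 0.77, Otof between -0.11 and 0.70, Ocm between -0.068 and 1.09, Isg15 between -0.94 and 0.27, Irf7 between -0.076 and 0.93 and Slc45a3 between -0.44 and 0.25. The difference of Atp6v1b1 lay between -0.80, without CTRL 6 h replicate 3, and 2.18.

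The part of depth in the calls was not tested. Genes under about 1 CPM in a group, such as Gjb1, Acod1, Gm3336 and, in CTRL, Crx, rest on few counts. The 3 libraries a group limit which differences between GM and CTRL were detectable.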

Other observations

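Other gene groups that were read but belong to none of the comparisons above moved as follows in GM, beside 12.5% higher and 11.7% lower of all genes tested. Of 34 sterol and fatty acid synthesis genes 6 fell and 1 rose (median -0.18, and -0.11 without GM 6 h replicate 2). In CTRL the same number fell and 4 rose (median -0.06), with 2 to 6 rises when 1 CTRL library was left out. The CTRL falls came to 2 without CTRL 6 h replicate 2 and 3 without CTRL 6 h replicate 1 or any 1 CTRL library at 24 h. Sqle, an early enzyme of the sterol branch, fell by 0.70, whereas Tm7sf2, a late reductase, rose by 1.21. Only 3 of them fell without GM 6 h replicate 2 or GM 24 h replicate 1 or 2. Of 37 glycolysis and hypoxia genes 3 rose and 0 fell (median 0.30, between 0.0035 without GM 6 h replicate 2 and 0.60 without GM 6 h replicate 3, and 0.10 without GM 24 h replicate 1). Aldoc, the brain-type aldolase, read 55.4, 38.0 and 45.8 CPM at 6 h and 133, 87.4 and 126 CPM at 24 h, and Pfkm, the muscle-type phosphofructokinase, rose by 0.91. Leaving out GM 6 h replicate 3 gave 5 rises. Of 23 complement genes 3 rose and 0 fell in GM, and 8 rose and 1 fell in CTRL, where 2 rose without CTRL 6 h replicate 1 or CTRL 24 h replicate 3 and 5 without CTRL 6 h replicate 3. C1qa, a chain of C1q that macrophages make, rose by 1.52 and Serping1, the C1 inhibitor, by 0.81. No complement gene was called in edgeR's test without GM 6 h replicate 1, 1 rose without GM 6 h replicate 2 or GM 24 h replicate 1 and 5 rose without GM 6 h replicate 3. The call of C1qa was lost without replicate 1 or 2 at either time, and that of Serping1 without GM 6 h replicate 1 or 2 or GM 24 h replicate 3.

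Of 37 collagens 2 rose and 3 fell. Col26a1 rose by 1.23 and Col4a3, a basement membrane chain, fell by 2.43. The call of Col26a1 was lost without replicate 2 at either time and that of Col4a3 without GM 24 h replicate 1 or 2. Over the leave-outs 0 to 6 collagens rose, 0 of them without replicate 2 at either time and 6 without GM 6 h replicate 3, and 1 fell without GM 6 h replicate 2 or GM 24 h replicate 1 or 2. Postn, a matrix protein of mesenchyme, rose by 1.02. Red blood cell and endothelial genes fell in 5 of 16 cases and rose in 0. Hbb-bt, a β-globin whose close copies can share its reads, had 37.2, 49.4 and 86.4 CPM at 6 h and 17.3, 17.8 and 17.0 CPM at 24 h, and Alas2, the erythroid enzyme of haem synthesis, fell by 1.44, a call lost without GM 6 h replicate 3 or GM 24 h replicate 2. The 5 falls came to 1 without GM 6 h replicate 3, 3 without GM 24 h replicate 2 and 2 without GM 24 h replicate 3. The GM minus CTRL difference was positive in all 16 (median 0.40, between 0.021 and 0.81 with 1 library left out), and with pioglitazone 7 of the 16 were negative (median 0.018).

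By gene type, 125 of 686 long noncoding RNAs were higher at 24 h in GM (18.2%) and 33 lower (4.81%), with a median log2 fold change of 0.31, where 15225 protein-coding genes had a median of 0.01. The median of the long noncoding RNAs in CTRL was 0.36. Of 65 small nucleolar RNAs 0 were higher and 7 lower in GM (edgeR), with medians of -0.28 in GM and -0.66 in CTRL. What moves with these gene types was not tested.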
